A study of Drosophila melanogaster with 3 samples.

Results

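Cuticle protein genes are the 122 protein-coding genes whose symbol starts with Cpr and a digit, Lcp, Ccp84 or Twdl, together with Acp1, Pcp, Edg78E, Edg84A and Edg91, out of 13945 protein-coding genes in the annotation. They comprised 70 Cpr, 25 Twdl, 15 Lcp and 7 Ccp84 genes and 5 others. The members were chosen by name and not by a measured value, but the family was chosen with earlier results of these data known. The samples were 3 biological replicates of 1 group: whole Drosophila melanogaster prepupae of pooled sex from a transgenic line that stably expressed the zinc finger protein CG6808 (Zaf1) with eGFP at its C-terminus. Chromatin immunoprecipitation was followed by sequencing (ChIP-seq), with an antibody to GFP according to the sample descriptions. In the labels, however, the antibody is given as CG6808, and an age of 24 days is stated for these prepupae.

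All cells of the animal were pooled, so binding in the epidermis, which makes cuticle, cannot be told apart from binding in other tissues. The labels give neither the number of animals nor the state of the untagged gene, and the line is a single transgenic line. Samples without the tag were not analysed here, and read depth was unknown. The authors' reproducibility-filtered list (IDR list) held 8091 peaks, and the pooled list and each replicate list held 30000 regions, so a replicate list reaches far into weak signal. For each replicate the 8091 regions of highest signal are called its strongest regions. Signal is the authors' peak height and differs in scale between the pooled list and each replicate list, so ranks within a list (1 is strongest) are given beside it. The IDR and pooled lists share a scale, and the members bound in both had the same signal and rank in each. These lists are therefore not independent of each other. A gene is called bound where a summit, the highest point of a peak, lay within 500 bp of any annotated transcription start site (TSS).

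The insect cuticle is an extracellular layer of chitin fibres and proteins that epidermal cells secrete anew at each moult. Most Cpr, Lcp and Ccp84 proteins carry the Rebers and Riddiford domain, which binds chitin, whereas Tweedle (Twdl) proteins form a separate family. In prepupae the epidermis separates from the larval cuticle and deposits the pupal one, under the control of ecdysone and of transcription factors that it induces. Edg78E, Edg84A and Edg91 are ecdysone-dependent genes of imaginal discs and are known for expression at this stage. Pcp encodes a pupal cuticle protein, Acp1 an adult one, and Lcp1 to Lcp4 larval ones. Many of these genes are short and lie in tandem clusters.

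Sequences are shown for 3 kinds of place the results turn on: the strongest intergenic peak in a cluster, the upstream sequence of bound genes, and that of unbound genes of the prepupal stage. All are on the Release 6 (dm6) genome, 5′ to 3′. The first sequence is the 201 bases centred on the summit of the Cpr72E cluster peak, on the plus strand, at chr3L:16364277-16364477. It is all in lower case, since it held 0 copies of CACTG or its reverse complement CAGTG, which capitals would mark.
Cpr72E cluster peak: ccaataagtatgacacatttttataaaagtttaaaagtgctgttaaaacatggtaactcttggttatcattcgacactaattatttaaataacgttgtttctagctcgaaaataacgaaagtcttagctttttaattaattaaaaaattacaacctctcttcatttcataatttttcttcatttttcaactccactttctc

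The next 4 sequences are the 250 bases upstream of a TSS, on the strand of the gene. They lie at chr3L:16362353-16362602 (plus strand) for Cpr72Ea, chr3L:6143145-6143394 (plus strand) for Lcp65Ad, chr3R:6684195-6684444 (plus strand) for Edg84A and chr3L:21297804-21298053 (minus strand) for Edg78E. Capitals mark TATAAA starting and ending within 45 to 15 bp upstream of the TSS, the usual place of a TATA box. CACTG and CAGTG stay in lower case here, with 1 copy in Cpr72Ea, 1 in Lcp65Ad, 2 in Edg84A and 1 in Edg78E. Cpr72Ea and Lcp65Ad were bound in the IDR list, and Edg84A and Edg78E were not.
Cpr72Ea: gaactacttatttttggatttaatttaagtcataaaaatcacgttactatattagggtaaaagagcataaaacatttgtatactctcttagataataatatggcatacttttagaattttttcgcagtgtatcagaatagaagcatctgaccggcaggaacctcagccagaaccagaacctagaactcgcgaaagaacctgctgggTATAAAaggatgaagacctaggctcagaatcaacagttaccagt
Lcp65Ad: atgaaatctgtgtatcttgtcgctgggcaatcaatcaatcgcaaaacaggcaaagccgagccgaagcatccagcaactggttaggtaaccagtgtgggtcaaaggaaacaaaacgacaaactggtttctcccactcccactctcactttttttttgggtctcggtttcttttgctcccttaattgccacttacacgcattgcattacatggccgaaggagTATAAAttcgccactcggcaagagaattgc
Edg84A: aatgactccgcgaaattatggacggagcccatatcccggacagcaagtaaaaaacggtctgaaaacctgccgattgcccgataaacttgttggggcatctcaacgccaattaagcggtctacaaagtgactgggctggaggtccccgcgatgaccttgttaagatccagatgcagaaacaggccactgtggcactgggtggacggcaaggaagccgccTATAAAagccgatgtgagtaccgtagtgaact
Edg78E: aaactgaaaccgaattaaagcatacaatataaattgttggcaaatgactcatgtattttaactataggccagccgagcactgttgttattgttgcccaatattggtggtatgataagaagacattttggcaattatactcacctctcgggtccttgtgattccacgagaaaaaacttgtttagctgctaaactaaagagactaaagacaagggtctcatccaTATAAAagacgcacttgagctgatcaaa

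All 4 upstream sequences carried the TATA hexamer. So did 75 of the 122 cuticle protein genes (61.5%), against 8.75% of all protein-coding genes. The share was 100% of the 5 other genes (Acp1, Pcp and the 3 Edg genes), 73.3% of Lcp, 71.4% of Ccp84, 60% of Twdl and 55.7% of Cpr genes. Counted anywhere from 250 bp upstream to 50 bp downstream of the first TSS, on either strand, TATAAA (reverse complement TTTATA) was in 75.4% of member promoters and 45.8% of all. CACTG or CAGTG, which cannot share bases with each other, was in 37.7% of member promoters against 46.2% of all promoters. It was in 43.4% of IDR windows of 201 bases. These windows are shorter than the promoters, so their share cannot be set against the promoter shares. A match is a run of letters and not a shown binding site. The median GC content of these promoters was 44% for members and 38% for all genes.

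The gene structure of the family also stood apart. A single annotated TSS position was found for 111 members (91%), against 73.5% of all protein-coding genes. The median gene length was 966 bp for members and 2166 bp for all genes. A head-to-head neighbour within 1000 bp was found for 13 members (10.7%) and for 36.2% of all genes. With fewer start sites, less sequence around a gene is searched for summits, and the main shares below are therefore also given against genes of like structure.

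Few cuticle protein genes had a summit of tagged CG6808 at their promoters. In the IDR list 3 of 122 were bound (2.46%, 95% Wilson interval 0.84 to 6.98%), against 18.1% of all protein-coding genes. In the pooled list 10 were bound (8.2%, 4.51 to 14.4%), against 32.2%. The intervals cover counting error only and take genes as independent, although neighbours in a cluster share sequence.

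The same was seen in each replicate. In the full lists 12 members (9.84%) were bound in replicate 1 against 38.2% of all genes, 23 (18.9%) in replicate 2 against 33.5%, and 17 (13.9%) in replicate 3 against 31%. The mean was 14.2% ± 4.51 for members and 34.3% ± 3.68 for all genes (SD, n = 3). The difference, members minus all genes, was -20 ± 7.33 percentage points and ran from -28.4 to -14.7, so every replicate lay below 0 by more than the spread. Among the strongest regions 3, 3 and 2 members were bound in replicates 1, 2 and 3, against 20.7%, 17.7% and 16.5% of all genes. There the difference was -16.1 ± 1.87 points. With 3 replicates of 1 group no permutation of labels was possible, and the ranges are given without a test.

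**Figure D1:**
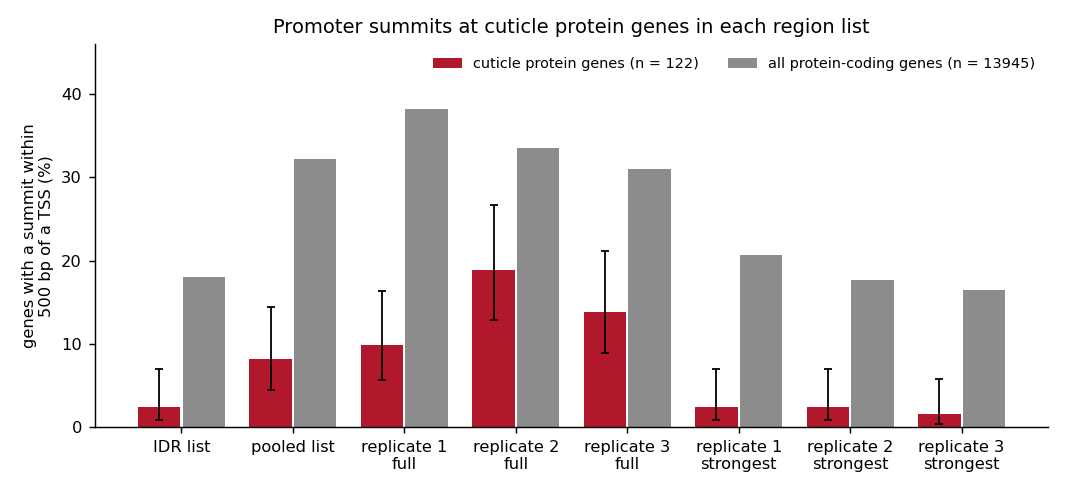
Share of genes with a summit within 500 bp of a TSS (percent, vertical axis) in each region list, for the 122 cuticle protein genes (red, with 95% Wilson intervals) and all 13945 protein-coding genes (grey). The red bar is below the grey one in all 8 lists, with 2.46% against 18.1% in the IDR list. It is lowest in the strongest regions of replicate 3 (1.64% against 16.5%) and highest in the full list of replicate 2 (18.9% against 33.5%).

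Genes of like structure were also bound less often than all genes. Of genes with 1 TSS position 11.8% were bound in the IDR list, and of such genes whose length also fell within the interquartile range of the members (736 to 1452 bp) 7.98% were. The members in these classes were bound in 3 of 111 cases (2.7%, 0.923 to 7.65%) and 1 of 58 cases (1.72%, 0.305 to 9.14%), and the second interval includes the background. In the pooled list 4 of the 58 were bound (6.9%, 2.71 to 16.4%), against 16.4% of the class. In the full lists of replicates 1, 2 and 3 it was 6.9%, 17.2% and 12.1% of the 58 members, against 22.7%, 19.2% and 15.8% of the class. The mean difference, -7.17 ± 7.56 percentage points (SD, n = 3; range -15.9 to -1.96), was smaller than its spread, although negative in each replicate.

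Against genes with the TATA hexamer, the gap was narrower still. Of all genes with 1 TSS position and the hexamer, 5.45% were bound in the IDR list, and of the 74 members of that class 3 were (4.05%, 1.39 to 11.3%). In the full replicate lists 9.46%, 23% and 14.9% of these members were bound in replicates 1, 2 and 3, against 15.7%, 18% and 17.1% of the class. The means were 15.8% ± 6.8 and 16.9% ± 1.16, a difference of -1.18 ± 5.68 points (SD, n = 3) that was smaller than its spread and positive in replicate 2. Among the strongest regions 4.05%, 2.7% and 2.7% of these members were bound, against 5.91%, 4.99% and 5.08% of the class, and the difference was -2.18 ± 0.277 points. These shares rest on 3, 2 and 2 members. Their Wilson intervals (1.39 to 11.3% in replicate 1, 0.744 to 9.33% in replicates 2 and 3) include the class, so the SD is smaller than the counting error. Over the whole annotation, 7.87% of genes with the hexamer and 19% of those without it were bound in the IDR list. This class was added after the data were seen.

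The bound members were few enough to describe singly. Cpr72Ea, a gene of the Rebers and Riddiford family on 3L, had a summit of signal 295 and rank 3871 (chr3L:16362149-16362618) at -219 bp from its TSS (negative is upstream). Its strongest promoter summits in replicates 1, 2 and 3 had signals of 135, 81.8 and 98 and ranks of 4947, 3298 and 2647, at -162, -427 and -318 bp. All 3 ranks were within the strongest regions, and all lay upstream of the gene.

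Lcp65Ad, a larval cuticle gene of the 65A cluster, had a summit of signal 175 and rank 6989 (chr3L:6143355-6143824) at 195 bp downstream of its TSS, in an exon. Its replicate summits had signals of 97.9, 42.5 and 25.9 and ranked 7202, 7102 and 13920, at 193, 186 and 204 bp, and the third fell outside the strongest regions. Cpr51A, which lies outside the clusters, had a summit of signal 194 and rank 6247 (chr2R:14514933-14515402) at 43 bp. Its replicate signals were 127, 29.3 and 44.8 and the ranks 5339, 10891 and 6957, so replicate 2 was the lowest. All 3 bound genes carried the TATA hexamer. When IDR peaks had to be matched within 100 bp in the strongest regions of both other replicates, 1 member (Cpr72Ea) was bound without replicate 1, against 12.1% of all genes. Without replicate 2 Cpr51A and Cpr72Ea were bound (background 12.9%), and without replicate 3 Lcp65Ad and Cpr72Ea (13.5%).

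The other 7 members bound in the pooled list had weaker summits. This follows from how the lists relate, since the lowest IDR signal was 152 and bound members ranked alike in both lists. Cpr97Ea had signal 141 (rank 8795), Cpr12A 104, Cpr100A 97.9 and Cpr49Ah 90.9. Edg91 had 54.8, Cpr97Eb 52.2 and TwdlE, the only Tweedle gene among them, 46.6 (rank 25198). Of these Cpr97Ea, Cpr12A, Cpr100A, Cpr49Ah and TwdlE had a promoter summit in all 3 full replicate lists, Cpr97Eb in replicates 1 and 3 and Edg91 in replicate 1 alone. Cpr97Ea had replicate signals of 83.6, 54 and 23.8, with ranks of 8567, 5430 and 15607, and its replicate 2 summit alone was among the strongest regions. Cpr12A ranked 14393, 12407 and 12306, at -194, -193 and -175 bp, so its place was nearly the same in each replicate. Cpr100A ranked 20979, 14968 and 9935, and Cpr49Ah 18867, 14184 and 11896, with all 3 Cpr49Ah summits between -491 and -454 bp, close to the edge of the window. TwdlE ranked 21035, 13453 and 25540, with summits on both sides of its TSS. Cpr78E had no pooled summit but was listed in replicates 2 and 3 (ranks 22349 and 13857). Pooled regions matched in both other full replicate lists left 7 bound members without replicate 1, and 6 without replicate 2 or replicate 3. The share of all genes is not given for these matched regions, so the fall cannot be set against it.

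Replicates rarely named the same weakly bound gene. In all 3 full lists 8 members were bound (6.56%) against 22.4% of all genes, in 2 lists 2 members (1.64%) against 9.71%, and in 1 list 24 members (19.7%) against 16.1%. The remaining 88 members (72.1%) were bound in no replicate list, against 51.8% of all genes. Among genes with 1 TSS position and like length, 3 of 58 members (5.17%, 1.77 to 14.1%) and 9.12% of the class were bound in all 3 lists, and the interval includes the class. Of the 34 members bound in at least 1 list, which were 27.9% against 48.2% of all genes, most were thus seen in a single replicate.

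**Figure D2:**
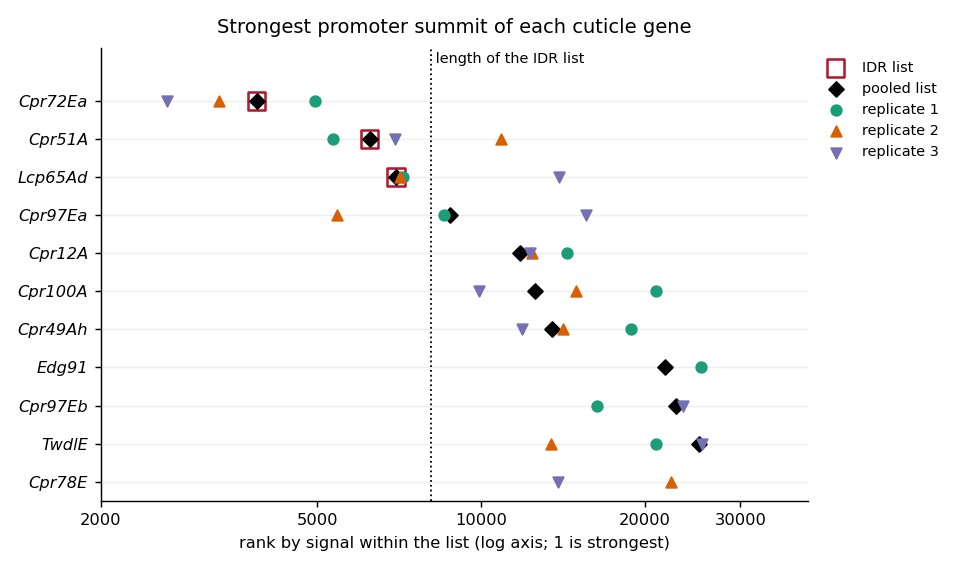
Rank of the strongest summit within 500 bp of a TSS (horizontal, log axis, 1 is strongest) for the members bound in the pooled list or in at least 2 replicate lists; symbols stand for the lists. Cpr72Ea lies left of the dotted line, the length of the IDR list, in every replicate, whereas Edg91 has a point in replicate 1 alone.

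The genes best known at the prepupal stage had no reproducible promoter summit. Edg78E had a summit in replicate 2 alone (signal 15.4, rank 23433, 323 bp from the TSS), and so had Edg84A (12.6, rank 29633, 253 bp). Edg91 had one in replicate 1 alone (25.6, rank 25434, 40 bp). These ranks lie near the end of lists of 30000 regions. Pcp and Acp1 had no promoter summit in any list. The larval gene Lcp1 had a summit in replicate 2 alone (12.8, rank 29128), and Lcp2, Lcp3 and Lcp4 had none. The nearest IDR summit lay 4282 bp from Edg78E, 9634 bp from Edg84A, 6959 bp from Edg91, 11741 bp from Pcp, 37826 bp from Acp1 and 31379 bp from Lcp1.

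Counts by family were small. No Ccp84 gene was bound in any list, Twdl genes were bound in 0 of 25 cases in the IDR list and 1 in the pooled list, Lcp genes in 1 of 15 in both, and Cpr genes in 2 and 7 of 70. Members inside clusters were bound in 2 of 87 cases in the IDR list and 3 in the pooled list. Members outside clusters were bound in 1 and 7 of 35. Of all protein-coding genes 18.1% were bound in the IDR list and 32.2% in the pooled list. Among genes with 1 TSS position and like length it was 7.98% and 16.4%. The smaller families hold too few genes to be set against these shares. Differences between families, or between members inside and outside clusters, were not tested. Of the promoters, 4 had a near-identical copy (Lcp65Ab1 with Lcp65Ab2 and Cpr65Ax1 with Cpr65Ax2, 97% identity each), where reads may be shared and the status is uncertain.

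The threshold of 500 bp left out a stronger peak than any it included. At Cpr72Eb, the neighbour of Cpr72Ea, an IDR peak of signal 1050 and rank 664 lay 522 bp upstream of the TSS (chr3L:16364193-16364567), and its replicate ranks were 766, 676 and 517. The farthest summit inside the window was that of Cpr72Ea, at 219 bp. Beyond Cpr72Eb came Cpr97Ea at 585 bp (signal 155), Cpr62Ba at 762 bp (206), Cpr65Ea at 930 bp (300) and Cpr12A at 990 bp (171). With these, 8 members had an IDR summit within 1000 bp (6.56%, 3.36 to 12.4%), against 22% of all genes. Among genes with 1 TSS position and like length it was 3 of 58 members (5.17%, 1.77 to 14.1%) against 10.3% of the class, which lies within the interval.

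IDR summits lay far from most cuticle protein genes. The median distance from a TSS to the nearest was 12354 bp (quartiles 5463 and 27600 bp), against 7102 bp for all genes and 9016 bp for genes of 1 TSS position and like length. In the strongest regions of replicates 1, 2 and 3 the members' median was 12948, 13003 and 13929 bp, against 5954, 6936 and 7630 bp for all genes. The mean was 13293 ± 551 bp and 6840 ± 842 bp (SD, n = 3), and the ranges did not overlap. Within 5 kb of an IDR summit were 23.8% of members, 34.3% of genes of like structure and 41.8% of all genes.

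**Figure D3:**
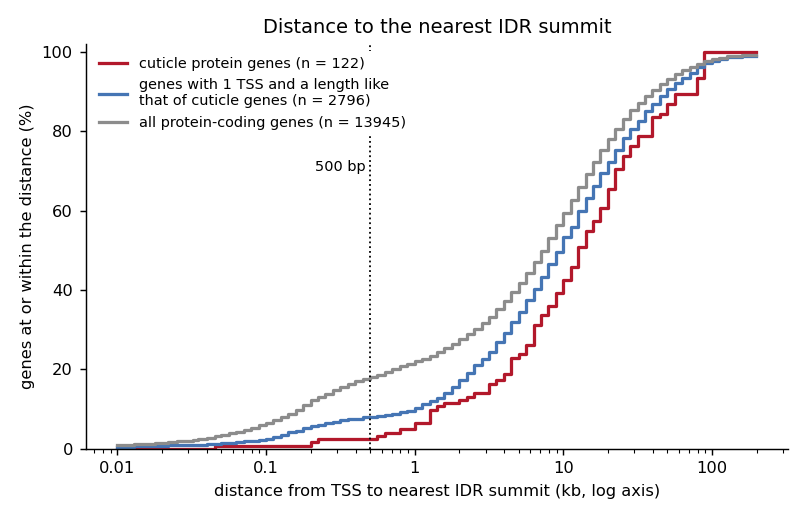
Share of genes (percent, vertical axis) with an IDR summit at or within a given distance of a TSS (kb, log axis), for cuticle protein genes (red), genes with 1 TSS position and like length (blue) and all protein-coding genes (grey). The red curve runs below the others over most distances and reaches 23.8% at 5 kb, against 34.3% and 41.8%.

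Some members had stronger peaks in the gene body than at the promoter. An IDR summit lay within the body of 5 members (4.1%), against 15.5% of all genes, and a pooled summit within 14 (11.5%) against 27.3%. A longer gene has more sequence in which a summit can lie. Among genes with 1 TSS position and like length the IDR count was 0 of 58 members (Wilson interval 0 to 6.21%) against 1.29% of the class, and the pooled count 2 (3.45%, 0.951 to 11.7%) against 6.65%, so a difference was not detectable there. In the full lists of replicates 1, 2 and 3 the share was 8.2%, 19.7% and 14.8% of members, against 30.5%, 30.7% and 30.1% of all genes. Cpr51A had an intronic peak of signal 443 (rank 2397, replicate ranks 2560, 2271 and 2651), stronger than the one at its promoter. Cpr97Ea had an intronic peak of 366 (rank 3009, replicate ranks 5058, 2514 and 1716). Cpr73D had 3 peaks, of 294, 181 and 156, and no promoter summit in the IDR list. Cpr62Ba had 1 of 206 in an intron.

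The members formed 15 clusters of at least 3 genes with gaps of at most 20 kb. They held 87 members in 243 kb, with 7 IDR and 23 pooled summits inside. An IDR summit lay within 4 of the clusters and a pooled summit within 6, so 9 clusters had neither. Cpr67F and Cpr76B had no summit in any list, while the other 7 had summits in replicate lists only.

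**Figure D4:**
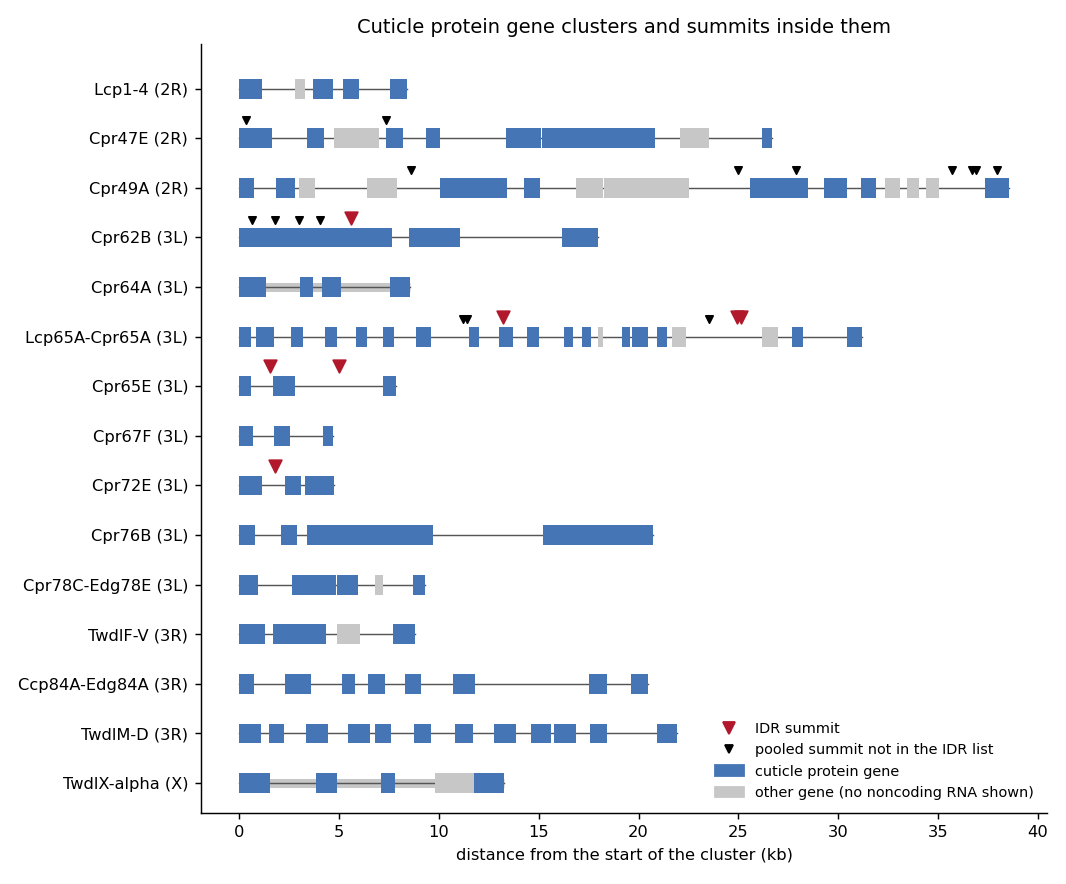
Map of the 15 clusters to scale (distance from the start of each cluster, kb), with cuticle protein genes in blue, other genes in grey, IDR summits as red triangles and further pooled summits as small black ones. Red triangles stand over Cpr62B, Lcp65A-Cpr65A, Cpr65E and Cpr72E, 7 in all, and 9 clusters carry no triangle.

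In the IDR list, summits between the genes of a cluster were sparse near start sites. Away from start sites their density was in the range of other intergenic sequence. Over 101 kb of cluster intergenic sequence there were 5 IDR summits, or 4.97 per 100 kb (exact Poisson interval 1.61 to 11.6), against 5.96 per 100 kb of all intergenic sequence. More than 500 bp from any TSS the density was 4.93 (1.02 to 14.4) in clusters and 3.89 in all such intergenic sequence. Within 500 bp of a TSS it was 5.02 (0.608 to 18.1), below 23 for all such sequence. This sequence includes promoters of members counted above, so the value is not separate from the promoter shares. It was not set against genes of like structure. With the peaks matched in both other replicates, the cluster density was 2.98 without any 1 replicate. Fewer peaks remain there, and their density over all intergenic sequence is not given, so 2.98 cannot be set against 5.96.

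The strongest regions of each replicate gave a like split, whereas the full lists of replicates 2 and 3 gave a higher density away from start sites. In the strongest regions the ratio of cluster to genome density was 0.543 ± 0.0785 (SD, n = 3) over all intergenic sequence. The same ratio was 0.97 ± 0.207 away from start sites and 0.106 ± 0.00804 within 500 bp of them. These rest on 2, 3 and 2 summits away from start sites and 1 in each replicate near them (2.51 per 100 kb, Poisson interval 0.0635 to 14), so the SD is much smaller than the counting error. In the full lists the ratios were 1.4 ± 0.327 away from start sites and 0.287 ± 0.227 near them. Away from start sites, replicates 1, 2 and 3 gave 18.1, 32.9 and 29.6 per 100 kb in clusters against 17.4, 19.6 and 20.1. The Poisson interval of replicate 2 (20.1 to 50.8) lay above the genome value, and those of replicates 1 and 3 included it. The pooled list gave 13.9 per 100 kb of cluster intergenic sequence against 22.9. The full lists of replicates 1, 2 and 3 gave 12.9, 24.8 and 27.8 per 100 kb in clusters against 21.9, 23 and 23, so replicate 1 was the low one.

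The 5 intergenic IDR summits lay in 3 clusters. In the Cpr72E cluster there was 1, the peak of rank 664 described above. In the Lcp65A-Cpr65A cluster, the longest row of larval cuticle genes, the strongest peak had signal 763 and rank 1159 (replicate ranks 1033, 1508 and 1367). It lay at an offset of -106 bp from the TSS of a noncoding RNA, lncRNA:CR45421, and a neighbouring summit of signal 184 lay at -307 bp from the same TSS. The regions of these 2 summits overlap (chr3L:6155155-6155456 and chr3L:6155275-6155744). The weaker was not matched in replicate 1 and ranked 11282 and 18466 in replicates 2 and 3. The 2 may thus mark 1 site, although the density and its Poisson interval take them as independent. They were the only IDR summits of the intergenic sequence within 500 bp of a TSS, and neither lay within 500 bp of the TSS of a cuticle protein gene. Cpr65E had peaks of signal 300 (rank 3804, replicate ranks 4538, 3286 and 3881) and 190 (rank 6376), at -930 bp from the TSS of Cpr65Ea and -2197 bp from that of Cpr65Eb. In Cpr47E and Cpr49A the strongest intergenic summits were in the pooled list but not in the IDR list, with pooled signals of 133 and 118. That of Cpr47E was matched in all 3 replicate lists (ranks 10505, 15662 and 9187) and that of Cpr49A in replicate 1 (rank 11284).

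Other genes of cuticle formation gave different shares. Of 30 genes of chitin synthesis, assembly and turnover, 14 were bound in the IDR list (46.7%), against the 18.1% of all genes. Their share in the full replicate lists was 76.7% ± 3.33 (SD, n = 3), against 14.2% ± 4.51 for cuticle protein genes, with no overlap of the replicates. The chitinase genes Cht7 and Cht11 had signals of 852 and 523, and Hexo2, which encodes a hexosaminidase, had 772. The list also held kkv (183), the chitin synthase of the epidermis, and knk (224), needed for chitin organisation. Without replicate 1 or replicate 3 the count was 9, and without replicate 2 it was 11. Among list genes with 1 TSS position 9 of 17 were bound, against 11.8% of all such genes.

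Genes listed under tanning and pigment had a lower share than the chitin genes, a difference that was not tested. Of 25 tanning and pigment genes 2 were bound (8%, against 18.1% of all genes), PPO3, a prophenoloxidase gene, with 351 and speck, an acetyltransferase gene, with 203. Without replicate 1 or replicate 2 the count was 1. Their share in the full replicate lists was 29.3% ± 6.11, against 34.3% ± 3.68 for all genes. Of 25 other matrix genes (obstructor and ZP-domain proteins) 2 were bound (8%), qsm with 335 and tyn with 333. The replicates gave 36% ± 4 for these genes (SD, n = 3 each), which lies within the spread of the 34.3% for all genes. Among genes with 1 TSS position 1 of 21 tanning genes and 0 of 16 other matrix genes were bound, against 11.8% of all such genes.

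Transcription factors of moulting and cuticle gene expression had the highest share of these 4 lists before gene structure was taken into account. Of 15, 9 were bound (60%, against 18.1% of all genes), and the replicates gave 86.7% ± 6.67 (SD, n = 3), against 34.3% ± 3.68. Eip93F, a factor of metamorphosis, had a signal of 1648, Eip75B, an ecdysone-induced nuclear receptor, 1268, and grh (Grainyhead), an epidermal factor, 848. Of these 15 genes 12 had more than 1 TSS position, so the window covered more sequence. Of the 3 with 1 TSS position 1 was bound, against the 9 of 17 chitin genes above. The TATA hexamer was upstream of 0 of these 15 genes, 6 of the chitin genes, 7 of the tanning genes and 6 of the other matrix genes. These lists were small, were chosen with earlier results known and were not tested against other genes.

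**Figure D5:**
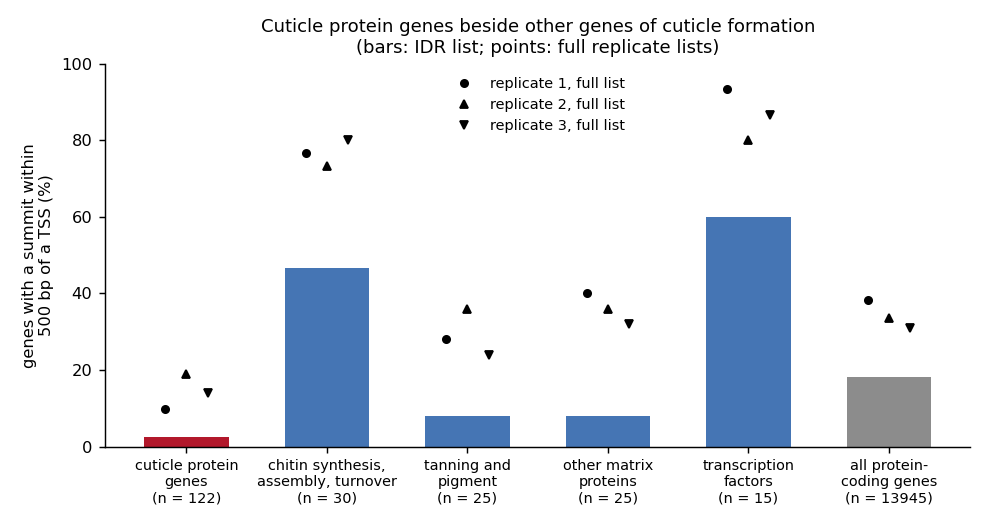
Share of genes with a summit within 500 bp of a TSS (percent) for cuticle protein genes, 4 lists of other genes of cuticle formation and all protein-coding genes; bars give the IDR list and points the full list of each replicate. Cuticle protein genes have the lowest bar, 2.46%, and all 3 of their points, 9.84 to 18.9%, lie below those of the chitin genes, whose mean is 76.7%.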

How the data were processed

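The authors deposited region lists on dm6 and dm3; the dm6 lists were used here. Per the file headers, regions were called for each replicate against 1 shared control alignment and again on the pooled replicates, and the IDR list was derived from these. Which aligner and which peak caller made them is not given in the sources used. The deposited signal column, the authors' peak height, was used to rank regions within a list and was not compared between lists of different scale. Per the labels, sonication gave fragments of 200 to 800 bp. Replicates may share a culture, which the labels do not say, so the spread may be partly technical.

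Genes and TSSs came from Ensembl release 115 on 6 chromosome arms, and sequence from the Release 6 genome of RefSeq. A gene was bound where a summit lay within 500 bp of any TSS. Replicate summits were matched within 100 bp, and the strongest regions of a replicate were as many as the IDR peaks. Clusters were at least 3 members chained at gaps of at most 20 kb, and intergenic bases were covered by no annotated gene. Promoter sequence ran from 250 bp upstream to 50 bp downstream of the first TSS. Shares have 95% Wilson intervals and densities exact Poisson intervals. Leaving out a replicate kept peaks matched in both others, although the lists themselves were made with all replicates. The counting procedures were tested on simulated data. Of 96 symbols in the 4 pathway lists, 95 were matched.

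The members and lists were chosen with earlier results of these data known. The named genes are the members bound in the IDR list or in all 3 full replicate lists, the 10 of highest pooled signal, Acp1, Pcp, Edg78E, Edg84A, Edg91 and Lcp1 to Lcp4, the strongest intergenic summit and flanking genes of each cluster, hosts of nested members, and the 3 bound genes of highest signal per pathway list. Cpr73D, Cpr78E, Cpr62Ba, Cpr65Ea, kkv and knk were added to these with their values known. The software was scipy 1.17.1, pandas 2.3.3, numpy 2.4.6 and matplotlib 3.10.9 under Python 3.11.15.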

Additional observations from a re-analysis of the deposited data

How the results depend on the processing

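No paired analysis was possible because there is 1 group. Of 60 alternatives to 10 results, 34 left a count within 1.5 times its value, the replicate share and the distance within 1 SD of the replicates, or the density and background within their intervals; the cause of the other changes was not tested, except that a wider window or longer list holds more summits and a smaller set fewer. Alternatives chosen after the data were seen were region overlap, promoters without a near-identical copy, and backgrounds matched for length or for TATAAA. Members bound in the IDR list numbered 8 at 1000 bp (6.56%, against 22% of all genes) and 1 with the stronger part of the peaks (0.82% against 10.6%). They numbered 5 by any overlap of the region, and 1 to 2 without 1 replicate (0.82 to 1.64%, against 12.1 to 13.5%). In the pooled list they numbered 18 at 1000 bp and 6 to 7 without 1 replicate. The mean replicate share was 9.02% at 250 bp, 24% at 1000 bp, 2.19% in the strongest regions (18.3% for all genes) and 11.9 to 16.4% without 1 replicate. For region overlap, the pooled alternatives and the other replicate alternatives, the share of all genes is not given. Cluster intergenic density was 13.9 per 100 kb in the pooled list, 12.9, 24.8 and 27.8 in the full lists of replicates 1, 2 and 3, and 2.98 without any 1 replicate. The median distance was 15464 to 16980 bp without 1 replicate. Fewer peaks remain without 1 replicate, and neither the density of all intergenic sequence nor the distance of all genes is given for them. Bound chitin genes numbered 9 to 11 and tanning genes 1 to 2 without 1 replicate (12.1 to 13.5% of all genes). At 250 bp 0 tanning and 0 other matrix genes were bound (13.9% of all genes). The background share was 11.8% for genes with 1 TSS position, 7.98% with like length and 5.45% with TATAAA. Read depth was unknown, so weak summits may not have been detectable.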

Other observations

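Strong peaks lay at the promoters of a few genes beside the clusters. Of the 30 genes that flank the 15 clusters, 3 were bound in the IDR list (10%), against the 18.1% of all protein-coding genes. CG11309, next to the Cpr78C-Edg78E cluster, had a signal of 2800 and rank 100, and GV1, next to Cpr62B, had 1414 and rank 376. ImpL2, which encodes a secreted binding protein of insulin-like peptides and flanks Cpr64A, had 192.5.

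The other flanking genes were not bound in the IDR list. They were CSN7 and Cyp4ad1 at Lcp1-4, CG43112 and CG9067 at Cpr47E, CG13159 and CG13157 at Cpr49A, CNMa at Cpr62B, CG15005 at Cpr64A, and l(3)mbn and Prdm13 at Lcp65A-Cpr65A. Further along were CG8641 and form3 at Cpr65E, OXA1L and Aps at Cpr67F, ringer and CG4842 at Cpr72E, CG9452 and CG46434 at Cpr76B, and pzg at Cpr78C-Edg78E. The last were CG34305 and Or82a at TwdlF-V, scrib and beat-VII at TwdlM-D, CG32572 and if at TwdlX-alpha, and the Hox genes lab and pb on the sides of the Ccp84A-Edg84A cluster. Among 19 other genes inside the clusters, 1 was bound in the IDR list, the noncoding lncRNA:CR45421. Of the 19, 14 were protein-coding and not bound, against 18.1% bound of all protein-coding genes, and 14 genes are too few to set against that share.

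Some members are nested in other genes. There were 12 within protein-coding genes, with 0 bound in the IDR list, too few to set against the 2.46% of all members. Pcp lies in Gart, which encodes enzymes of purine synthesis, the 4 Cpr64A genes lie in CG43367, and TwdlX, TwdlY, TwdlZ and Twdlalpha lie in goe. Cpr57A lies in Obp57d, Cpr11B in hwt and TwdlT in RYa-R. Cpr67Fb and Lcp65Ag3 lie in the antisense RNAs asRNA:CR45171 and asRNA:CR46005. No host gene was bound in the IDR list, but the hosts are too few to set against the 18.1% of all protein-coding genes.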
